A study of Homo sapiens with 102 samples.

Results

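The proteasome subunit genes are the 36 genes that encode the standard subunits of the proteasome and of its PA28 activator. They were picked by symbol from a count table of 24965 genes, and all 36 had a row. They comprise 7 alpha and 7 beta genes of the 20S core, 6 ATPase and 13 non-ATPase genes of the 19S cap, and 3 genes of PA28 (PSME1, PSME2 and PSME3). PSMD9 and PSMD10 are counted with the non-ATPase genes, although their products are chaperones of cap assembly. The rule uses symbols alone, and it was set with earlier results of these data known.

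Counts came from Combi-Seq, in which single K562 cells are enclosed in droplets with a pair of drugs and a joined DNA barcode that names the pair. K562 is an established erythroleukaemia line carrying BCR-ABL. Cells were incubated for 12 h with DMSO, imatinib (a BCR-ABL inhibitor), trametinib (a MEK inhibitor) or YM115, which the study calls YM155 and uses against survivin, as first-listed and as second-listed drug. The 16 ordered pairs were run 3 times in each of 2 screens (dT and Bio, between which the barcode types of the 2 drug sources, Braille valves and autosampler, were swapped), giving 96 in-screen libraries, and each screen had 3 further libraries with DMSO as both drugs that the submitters name as separate controls. All groups share the cell line and the solvent, the labels give no dose, and the study describes DMSO droplets processed apart as controls of its drug-exchange experiment. Whether the separate libraries here were made that way is not given in the sources used here. Their incubation is given as 12 h, and the study incubated its drug-exchange droplets for longer. The study calls its runs independent biological experiments. Whether they came from separate cultures is not given in the sources used here, and p-values measure the spread between these libraries.

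The proteasome is the main protease of the cytosol and nucleus. Its barrel-shaped core holds its active sites on the inner face of the beta rings, and the cap recognises ubiquitin-tagged proteins, unfolds them with its ATPase ring and feeds them into the barrel. PA28 caps can open the barrel without ATP. Proliferating blood cells, myeloma above all, depend on this turnover, and transcription of the subunits is raised together by NFE2L1 when proteolysis falls short.

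In-screen dT libraries held 127042 to 759756 counts and Bio libraries 17882 to 780143, against 256671 to 458945 and 35742 to 89347 in the DMSO libraries outside the screens. The fits used in-screen libraries with 1000 or more detected genes and no more than 15% mitochondrial counts, which were all 48 of dT and 44 of 48 of Bio. Left out were every run of Bio Imatinib + Imatinib (472, 453 and 438 detected genes) and Bio DMSO + Trametinib run 1 (808). The Bio drug fits thus held no library with imatinib in both positions. The separate libraries entered their comparison without this filter. The globin gene HBG2 and the erythroid factor GATA1 had a count in 48 and 38 of the 48 dT libraries. CD3E, MS4A1 and LYZ, markers of T, B and myeloid cells, had none in dT. Each library pools many cells, so fewer cells with a transcript and less transcript per cell cannot be told apart.

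The proteasome genes took 0.790% ± 0.316 of the counts of a dT library (SD, n = 48) and 0.629% ± 0.363 of a Bio library (n = 48). These counts came from few genes. PSMB7, the beta subunit with trypsin-like activity (chr9:124353466-124415444, minus strand, GRCh38), supplied 29.11% of the 131842 proteasome counts of dT and 26.11% of the 68008 of Bio. Together with PSMA4, PSMD2 and PSMC5 it made up 59.0% of those of dT. PSMB7 was the leading proteasome gene in 33 of 48 dT libraries and in 19 of 48 Bio libraries. By role, 43.35% of the dT counts fell on the beta genes, 24.5% on the non-ATPase genes, 19.72% on the alpha genes, 9.103% on the ATPase genes and 3.324% on PA28.

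**Figure D1:**
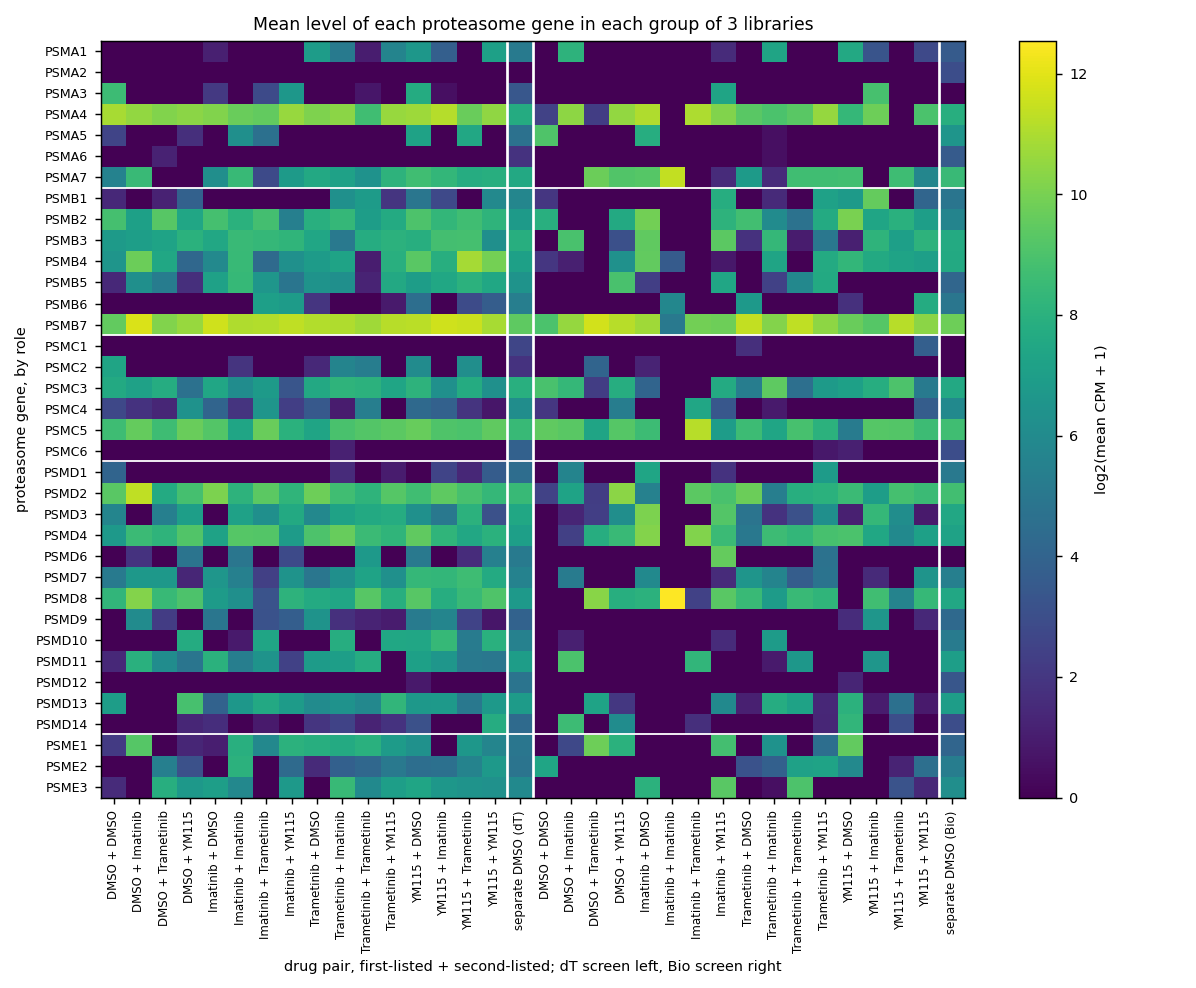
Mean level of the 36 proteasome genes (rows, by role) in each drug pair and in the separate DMSO libraries (columns, 3 libraries each), as log2(mean CPM + 1). The row of PSMB7 is bright in nearly all columns, most rows are a patchwork of bright and empty cells, and the columns of the separate DMSO libraries are filled more evenly.

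PSMB7 was the one proteasome gene counted in all 48 dT libraries, with 55 to 2356 counts and 2263.9 ± 1063 CPM (a gene's counts scaled to a library total of 1000000, SD, n = 48). In Bio it had a count in 41 of 48 libraries and 1510.7 ± 1414.9 CPM. The lowest group mean in dT was that of DMSO + DMSO (731.2 ± 301.9 CPM, with 487.9, 636.6 and 1069 in the 3 runs). The highest was DMSO + Imatinib (3674.7 ± 1478.2 CPM, n = 3). The 3 runs of YM115 + Imatinib lay close together, at 3101, 3347.1 and 3189.9 CPM, while DMSO + DMSO and DMSO + Imatinib were spread more widely.

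The other catalytic genes were scarcer. PSMB5, whose product carries the chymotrypsin-like site that bortezomib binds, had a count in 29 of 48 dT libraries (113.7 ± 155.9 CPM) and in 9 of 48 Bio libraries (57.89 ± 187.5 CPM). PSMB6, the caspase-like subunit, had one in 13 (18.37 ± 75.56 CPM) and in 5 (23.64 ± 91.08 CPM). The 3 subunits are built into the barrel in equal number, yet on the scale of CPM per kb of exon the dT means were 1266.9 for PSMB7, 64.42 for PSMB5 and 12.69 for PSMB6. Reads were made from the poly-A end, so exon length need not scale the counts.

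Outside the catalytic genes, PSMA4 (alpha ring, chr15:78540405-78552419, plus strand) had a count in 47 of 48 dT libraries and 1287.4 ± 931.6 CPM, but in Bio in 26 of 48, with a median of 3.108 and a maximum of 6458.2 CPM. PSMD2, a scaffold of the cap base, reached 646.5 ± 853.3 CPM in dT. PSMC5, an ATPase of the unfolding ring, reached 542.9 ± 511.2 CPM. PSMD4, a ubiquitin receptor, and PSMD8 of the lid had 389 ± 393.6 and 365.1 ± 463.2 CPM in 42 and 39 of 48 libraries. Each SD is near or above its mean from PSMD2 on, and differences between neighbours in this order were not tested. Per kb of exon the order of the dT means was PSMB7, PSMB3 (196.9) and PSMA4 (184).

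At the other end, PSMA2 (alpha ring) and PSMC1 (ATPase ring) had no count in any of 48 dT libraries, which allows a detection of up to 7.397% (exact 95% binomial limit, counting error only). PSMA6, PSMC6 and PSMD12, which encode further subunits of the ring, the ATPase ring and the lid, had 1 count each in 1 dT library. In Bio, PSMA2 had none either, and PSMC1 had 11 counts in 2 libraries. All of these proteins are needed for a complete particle.

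Detection came and went between runs of the same pair. Over the 576 combinations of a proteasome gene and a dT pair, 168 (29.17%) had a count in all 3 runs, 181 (31.42%) in none and the remainder in 1 or 2. In Bio 51 (8.854%) had one in all 3 runs and 308 (53.47%) in none. Where a proteasome gene was counted, it was rarely by 1 read: the median nonzero count in dT was 73, and 57.93% of nonzero counts were at least 50, against 30.59% over all genes. The extreme was Bio Imatinib + Imatinib run 2, a library below the filter, in which PSMD8 was the single proteasome gene seen and its 450 counts were 1.792% of the library. Molecular identifiers were not used in the counting described, so reads copied from few molecules cannot be told from many molecules.

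The order of the genes was nonetheless alike in the screens. Over the 36 genes, Spearman's rho of the mean CPM was 0.8896 between dT and Bio and 0.8453 between dT and its separate DMSO libraries. These sets share the cell line and the library chemistry, and genes are not independent replicates.

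The DMSO libraries outside the screens had counts for more of the genes. In dT they had counts for 27, 29 and 32 proteasome genes and in Bio for 23, 25 and 26. In-screen libraries had a median of 17 (8 to 28) in dT and of 9.5 (1 to 23) in Bio. The share of counts was 0.385% ± 0.146 (SD, n = 3) in the separate dT libraries and 0.424% ± 0.157 in the separate Bio ones. In the in-screen DMSO + DMSO libraries it was 0.578% ± 0.249 in dT and 0.269% ± 0.106 in Bio (n = 3 each), so the separate mean was the lower one in dT and the higher one in Bio. Thinned to 30000 counts, the separate libraries kept 23.28 ± 3.087 (dT) and 21.4 ± 3.016 (Bio) of the genes, against 13.77 ± 3.783 in-screen dT (n = 48) and 7.117 ± 2.731 in the 44 Bio libraries that passed. Detected genes in all were also more numerous in the separate libraries at that depth, with 4795.4 and 5258.8 against 1966.4 and 1115.9. The separate libraries differed in mitochondrial share too, with 10.19% to 36.86% in dT and 5.1% to 28.12% in Bio, and its part in these values was not tested.

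**Figure D2:**
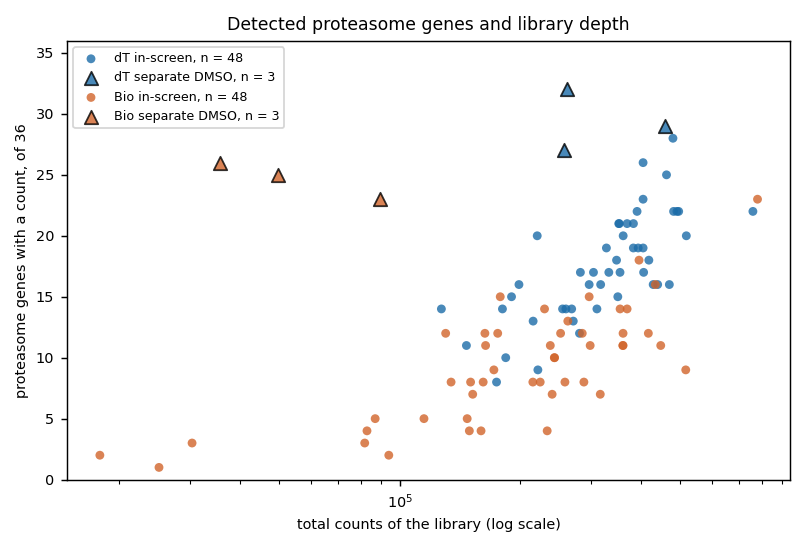
Number of proteasome genes with a count, of 36, against the total counts of each library (log scale), with in-screen libraries as circles and separate DMSO libraries as triangles, dT in blue and Bio in orange. The 6 separate libraries lie at 23 to 32 genes while in-screen libraries reach at most 28 at any total.

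In a direct comparison of separate with in-screen DMSO + DMSO libraries, 0 of 31 proteasome genes tested in dT passed an adjusted p of 0.05, with 5 (16.13%, against 16.15% of all genes) at an unadjusted p under 0.05. Every adjusted p here is from the quasi-likelihood test of edgeR, adjusted by Benjamini-Hochberg over all genes tested, unless DESeq2 is named. All genes gave 8 calls, or 0.116%. In Bio, 0 of 26 passed, 9 had an unadjusted p under 0.05 (34.62%, against 24.29% of all genes), and all genes gave 2 calls (0.0432%). Of these 6 separate libraries, 4 held 24.99% to 36.86% mitochondrial counts, above the limit set for in-screen libraries. The fitted log2 changes had a median of 3.12 over the proteasome genes tested in dT and of 3.39 over all genes tested, and of 5.64 and 5.63 in Bio. PSMB7 was level in dT, with 1012.7, 342.9 and 712.5 CPM outside the screen and 487.9, 636.6 and 1069 inside. PSMA4 had 268.5, 27.27 and 324.7 CPM outside the dT screen and 4163.5, 1393.6 and 116 inside, and in Bio 307.8, 302.2 and 80.37 outside and 0, 13.58 and 0 inside. Its log2 changes, -2.20 ± 1.52 (SE, adjusted p = 0.367) and 7.09 ± 2.70 (adjusted p = 0.189), did not pass.

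To ask how each drug moved these genes, expression was fitted with 1 term per drug, present in either position. Of the 26 proteasome genes tested in dT, 0 passed for imatinib (2.88% of 3930 genes did), 0 for trametinib (1.37%) and 1, PSMD10, for YM115 (2.62%). Of the 16 tested in Bio, 1, PSME2, passed for imatinib (2.34% of 1754 genes), 0 for trametinib (1.94%) and 0 for YM115 (2.74%). Before adjustment, p lay under 0.05 for 2, 1 and 3 of them in dT and for 4, 1 and 3 in Bio (imatinib, trametinib and YM115). These are 7.69%, 3.85% and 11.54% of the members tested in dT, against 13.89%, 12.65% and 14.27% of all genes. In Bio they are 25.0%, 6.25% and 18.75%, against 14.99%, 12.43% and 15.96%. DESeq2 called 2 (PSMB7 and PSMD10), 1 (PSMD10) and 1 (PSMD10) in dT and 1 (PSME1), 0 and 0 in Bio. Its adjusted p was missing for 4 of the 26 members in dT and for 5, 4 and 4 of the 16 in Bio. The median log2 change of the genes tested was 0.29, 0.22 and 0.65 in dT, against 0.07, 0.23 and 0.21 over all genes. In Bio it was 0.60, 0.79 and 1.07, against 0.12, 0.30 and 0.53. Only genes counted in enough libraries could be tested, so the remaining 10 members in dT and 20 in Bio have no value here.

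**Figure D3:**
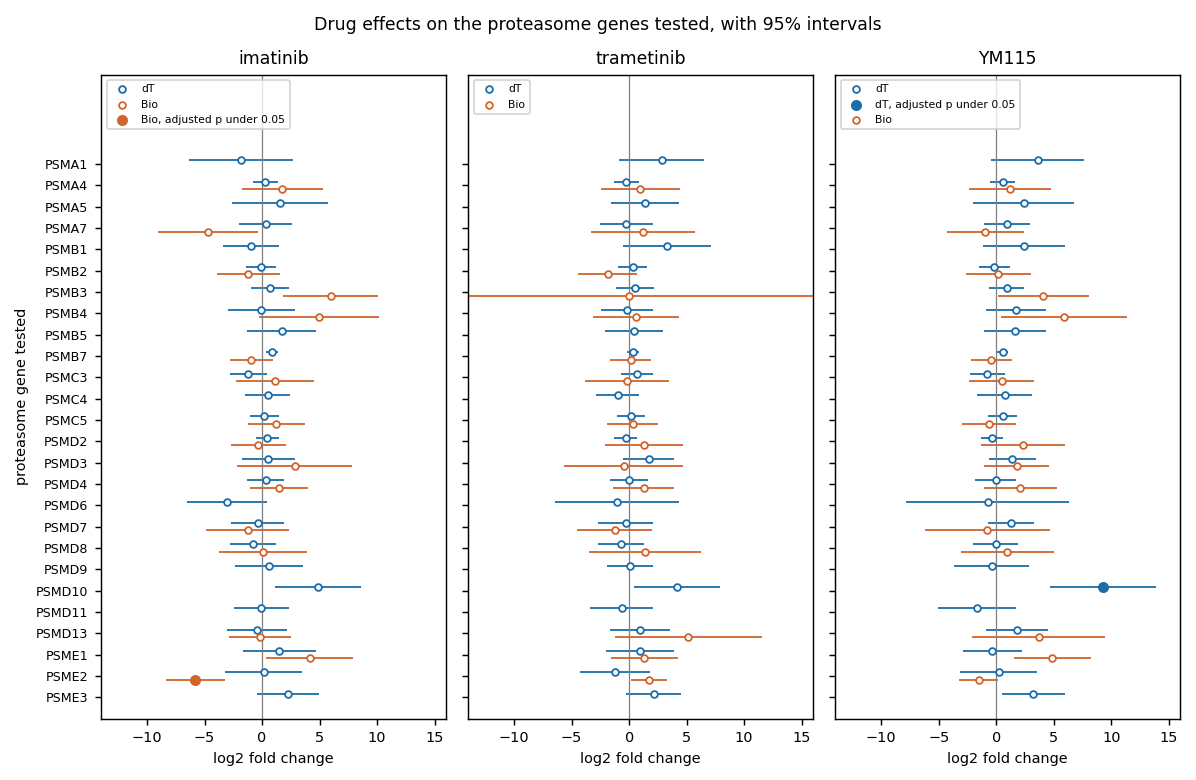
Fitted log2 fold change of each tested proteasome gene for imatinib, trametinib and YM115, with 95% intervals, dT in blue and Bio in orange, and filled points for an adjusted p under 0.05. PSMD10 with YM115 in dT and PSME2 with imatinib in Bio are the filled points, most intervals span 0, and the interval of PSMB3 with trametinib in Bio runs beyond the axis.

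PSMD10 (gankyrin, an assembly chaperone of the ATPase ring, chrX:108084207-108091618, minus strand) was counted in 13 of 21 dT libraries with YM115 and in 4 of 27 without. With YM115 the CPM ran from 0 over a median of 158.3 to 434.9, and without it from 0 over a median of 0 to 662.6. The groups overlapped. All 3 runs of YM115 + DMSO and of YM115 + Imatinib held counts (158.3, 353.2 and 2.473 CPM, and 180.3, 434.9 and 410.9). No run of Imatinib + YM115, the reverse order, held a count. The 4 libraries with counts but without YM115 all held imatinib. The means were 168.2 ± 168.7 and 42.9 ± 154.1 CPM, and the fitted log2 change was 9.26 ± 2.30 (SE, adjusted p = 0.0145), a size that depends on the prior count of the fit since most libraries were at 0. Without its highest library, Trametinib + Imatinib run 3, it was 8.22 (adjusted p = 0.00011), but without run 1 or run 2 the adjusted p was 0.191 and 0.162. dT libraries with YM115 were also deeper (380565.8 against 313708.8 mean counts) and lower in mitochondrial share (3.84% against 5.145%), and the part of both was not tested. Thinned to 100000 counts per library, the PSMD10 call for YM115 held (adjusted p = 0.0155). In dT, PSMD10 also had 1 of the 2 smallest p for imatinib and for trametinib. It did not pass in edgeR for either of these, while DESeq2 called it for all 3 drugs. Counts of PSMD10 were present in 7 of 21 imatinib libraries and 10 of 27 others. For trametinib these numbers were 6 of 21 and 11 of 27.

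Bio offered little on PSMD10, which was counted in 3 of 48 libraries, 278 of its 280 counts coming from Trametinib + Imatinib run 2. It was not tested there, and in the joint fit the YM115 change differed between the screens by -9.16 on the log2 scale (SE 4.83, adjusted p = 0.518).

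PSMB7 gave the smallest p for imatinib in dT. Its CPM was 2743 ± 1083 in the 21 libraries with imatinib and 1891 ± 900.5 in the 27 without, and the log2 change of 0.85 ± 0.26 had an adjusted p of 0.0612. DESeq2 gave 1.00 with an adjusted p of 0.000702. In Bio the change was -0.93 ± 0.92 (adjusted p = 0.717), with 1146 ± 1381 CPM with imatinib (n = 18) and 1828 ± 1305 without (n = 26). With YM115 in dT, PSMB7 changed by 0.57 ± 0.24 (adjusted p = 0.237).

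PSME2, the beta subunit of PA28, was counted in 1 of 18 Bio libraries with imatinib (39.74 CPM) and in 10 of 26 without (up to 489 CPM). The means were 2.208 ± 9.366 and 64.27 ± 131.7 CPM, and the log2 change was -5.80 ± 1.27 (SE, adjusted p = 0.00719). Without DMSO + DMSO run 3, its highest library, it was -3.77 (adjusted p = 0.039), and without run 1 or run 3 it was -5.14 and -4.63 (adjusted p = 0.225 and 0.0934). Without the run block no proteasome gene passed in that comparison. In dT, PSME2 had counts in 8 of 21 libraries with imatinib and in 14 of 27 without, and was highest in Imatinib + Imatinib, with 428.2, 119.9 and 248.9 CPM. Its log2 change in dT was 0.14 ± 1.66 (adjusted p = 0.989). The Bio fit held no library of Imatinib + Imatinib.

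The other genes with the smallest p per drug did not pass. In Bio, PSME1, the alpha subunit of PA28, changed by 4.89 ± 1.67 with YM115 (adjusted p = 0.0961), PSMB4 by 5.90 ± 2.74 with YM115 (0.271), PSMB3 by 5.95 ± 2.03 with imatinib (0.116) and PSMD13 of the lid by 5.16 ± 3.16 with trametinib (0.577). In dT, PSME3, the nuclear PA28 subunit, changed by 3.21 ± 1.36 with YM115 (0.236) and by 2.13 ± 1.19 with trametinib (0.48). All are log2 changes with SE and adjusted p.

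**Figure D4:**
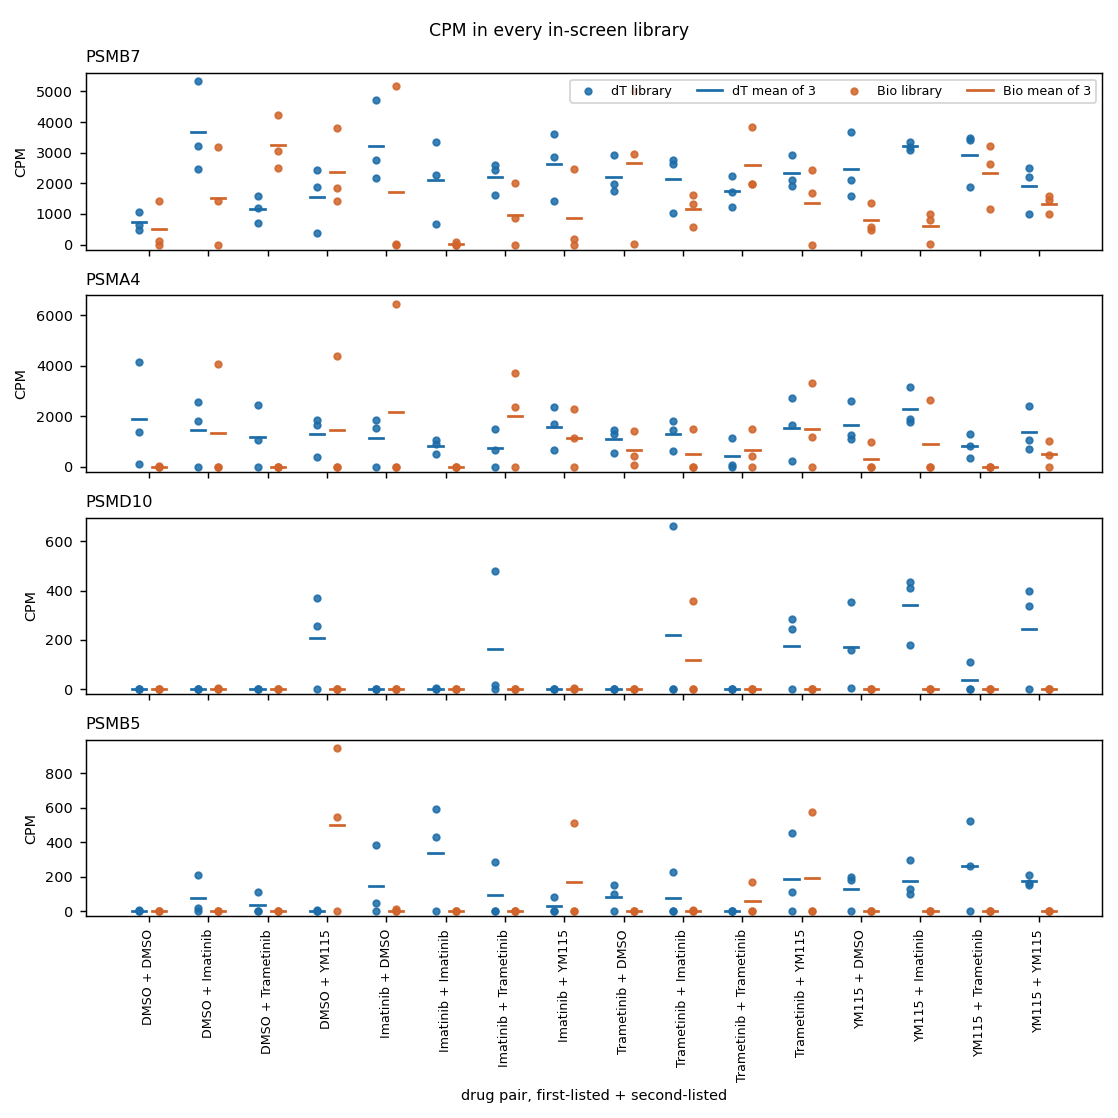
CPM of PSMB7, PSMA4, PSMD10 and PSMB5 in every in-screen library (points) with the mean of 3 runs (bars), by ordered pair, dT in blue and Bio in orange. PSMB7 is above 0 in every dT pair, most PSMD10 points of dT above 0 lie in pairs with YM115, and the 3 highest PSMB5 points of Bio are pairs with YM115 as second-listed drug.

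The number of proteasome genes counted followed the first-listed drug of dT. With DMSO listed first it was 13.08 ± 3.288 (SD, n = 12), with imatinib 16.58 ± 2.392, with trametinib 18.17 ± 2.823 and with YM115 22.08 ± 3.147. By second-listed drug the means lay between 16.92 (trametinib) and 17.92 (DMSO and YM115). Total counts moved with it, from 198556.2 with DMSO listed first to 456523.8 with YM115. After thinning every library to 100000 counts the means were 11.87 ± 2.968, 14.18 ± 2.299, 16.19 ± 2.45 and 19.97 ± 2.991, while all detected genes numbered 2146.5, 2477.9, 2883.8 and 2876.4. The share of counts in proteasome genes was 0.766%, 0.708%, 0.717% and 0.969% after thinning. In the 12 libraries with YM115 listed first it ran from 0.73% to 1.142%, and with YM115 listed second from 0.463% to 1.036% (0.747% ± 0.176). No test was made on these sums, since the members were chosen with results known. In Bio the number by first-listed drug was 7 ± 3 for DMSO (n = 11), 9 ± 4 for imatinib (n = 9), 12.17 ± 4.529 for trametinib and 11.42 ± 3.059 for YM115 (n = 12 each).

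A joint test on 3 degrees of freedom asked whether the listed position mattered per gene. Of 27 proteasome genes tested in dT, 2 passed, PSMA1 and PSMA5, where 13.9% of all 4492 genes passed. Of 19 in Bio, 1 passed, PSMB5, against 18.4% of 2112 genes. DESeq2 called 0 in either screen, where its adjusted p was missing for 12 of the 27 and 5 of the 19, and at an unadjusted p under 0.05 edgeR had 5 (18.52%, against 28.78% of all genes) and 7 (36.84%, against 35.04%).

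PSMA1 (alpha ring) was counted in 0 of 12 dT libraries with DMSO listed first, in 1 with imatinib, in 5 with trametinib and in 5 with YM115, up to 375.8 CPM (adjusted p = 0.00117). Listed second, the same drugs had counts in 3, 3, 1 and 4 of 12. PSMA5, another alpha gene, was counted in 4 of 12 libraries with YM115 listed first (82.45 ± 134.3 CPM) and in 1 of 12 with it second (0.568 ± 1.968 CPM, adjusted p = 0.00715). PSMB5 in Bio showed counts on the other side, with 0 of 12 libraries with YM115 first and 5 of 12 with it second (215.1 ± 334.1 CPM, adjusted p = 0.00984). In dT, PSMB5 had counts in all 3 runs of YM115 + Imatinib and YM115 + YM115, and its position test gave an adjusted p of 0.838. PSMD11, a lid scaffold, had the next smallest p in Bio (adjusted p = 0.0539). Without the highest library of each, PSMA1 and PSMA5 still passed (adjusted p = 0.000727 and 0.0067), while PSMB5 no longer passed the filter on low counts. Leaving out any of the runs gave fewer position calls among proteasome genes in dT and none in Bio.

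For drug pairs, the product terms of the fit measure the departure from additive log2 changes. No proteasome gene passed. In dT 0 of 29 passed for imatinib with trametinib (0.447% of all 6263 genes did), for imatinib with YM115 (0.431%) and for trametinib with YM115 (0.527%), and 7, 4 and 4 had an unadjusted p under 0.05 (24.14%, 13.79% and 13.79%, against 19.29%, 17.66% and 17.16% of all genes). In Bio 0 of 24 passed for the same pairs (0.379%, 0.0292% and 0.525% of 3429 genes), with 5, 5 and 6 at an unadjusted p under 0.05 (20.83%, 20.83% and 25.0%, against 16.19%, 17.29% and 20.12%). The closest was PSMC2, an ATPase, for trametinib with YM115 in dT (log2 departure 11.70 ± 2.98, adjusted p = 0.0513), whose counts were in 8 of 48 libraries. DESeq2 was not run on these terms, nor on the comparisons with the separate libraries or between the screens.

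Drug effects were then compared between the screens in 1 fit of 92 libraries and 4705 genes, in which Bio had no Imatinib + Imatinib library. Of 29 proteasome genes, 2 passed for YM115 (PSMA5 and PSMD6; 6.59% of all genes), 2 for imatinib (PSME2 and PSMB6; 5.84%) and 1 for trametinib (PSMA5; 4.59%). In each, the call rested on an arm of Bio with few or no counts. PSMB6 had 0 counts in 18 Bio libraries with imatinib and 309 in 26 without. Pooled over libraries, this is at least 83.5-fold lower against a floor of 3 counts over the group. Only 4 of the 26 had a count, and 183 of the 309 lay in YM115 + YM115 run 1. The bound leaves out this spread between libraries. In dT, PSMB6 was counted in 3 of 21 libraries with imatinib and 10 of 27 without. PSMD6, a lid subunit, had 409 of its 442 Bio counts in Imatinib + YM115 run 2.

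A list of genes around the proteasome (assembly, regulation, ubiquitin supply, the immunoproteasome and associated factors) had 27 matched rows. The assembly chaperone PSMG4 had 611.3 ± 558.7 CPM in dT, with a count in 46 of 48 libraries. The immunoproteasome genes were scarce in the dT screen, with 1.222 CPM for PSMB10 and 0.185 for PSMB9, and PSMB8 had no matched row. In the separate dT libraries PSMB9 was counted in 3 of 3, with 13.07, 38.36 and 101.3 CPM. For the 3 drugs in either screen 0 of these genes passed, of 19 tested in dT and 11 in Bio. For position, 0 of 19 passed in dT, where 13.9% of all genes did, and 4 of 14 in Bio, where 18.4% did (TXNL1, NFE2L1, SEM1 and PSMG3, adjusted p = 0.00779, 0.0186, 0.0332 and 0.0423). Between screens, 2 of 20 passed for YM115 (6.59% of all genes), POMP by 3.69 ± 1.13 (adjusted p = 0.0356) and UBA1 by -2.34 ± 0.76 (0.0481), as log2 difference of Bio and dT changes, and 2 of 20 for trametinib (4.59%), NGLY1 by 8.23 ± 1.97 (0.00772) and PSMD5 by 5.79 ± 1.80 (0.0458).

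The library protocol of the study digested bead-bound cDNA with MseI, an enzyme that cuts at TTAA, and kept the supernatant. The biotin-bearing barcode oligo holds a TTAA itself. The proteasome transcripts differ in how many such sites they carry. The sites were counted after the levels had been seen, in 1 protein-coding transcript per gene of GENCODE 29 (GRCh38). It was chosen by annotation rank and, where ranks were equal, by greater length, not by the forms K562 expresses. PSMB7 and PSMD4 have none, as have 6.736% of protein-coding genes. The 15 genes with 0 to 3 sites had a median dT level of 175.9 CPM, the 10 with 4 to 10 sites 36.56 CPM, and the 11 with more sites 14.83 CPM. The last site before the 3′ end is shown for PSMA4 and PSMC5, among the highest of the level order, for PSMA2 and PSMD12, at or near 0, and for PSMD10, called for YM115, with the TTAA in capitals, read on the gene's strand.

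PSMA4, plus strand, chr15:78552383-78552408: aaatcatgcttTTAAaaataaattat

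PSMC5, plus strand, chr17:63830444-63830469: cgagctgcctgTTAAgcatcctgagc

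PSMA2, minus strand, chr7:42916859-42916884: aatgctaatacTTAAgtgtcaaaact

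PSMD12, minus strand, chr17:67337916-67337937: aaactcatactTTAAaagatca

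PSMD10, minus strand, chrX:108084263-108084288: tgtcaagcttgTTAAaatgacatgta

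In PSMC5, the sole site lies 762 bases from the transcript end, in the coding part. In PSMA4, PSMA2 and PSMD12 the last site lies 22, 13 and 7 bases from it, in the 3′ UTR. By these transcripts, PSMA4 was high with 23 sites and a site near its end, where PSMD12 with 45 sites was near 0. Of the 23 sites of PSMA4, 22 lie in the 3′ UTR of the form chosen. Whether the cells carry that form was not tested. In the separate dT libraries PSMD12 had 0, 0 and 82.8 CPM. Spearman's rho of mean CPM with the number of sites over the 36 genes was -0.5212 in dT, -0.5298 in Bio, and -0.5486 and -0.5095 in the separate libraries. Over protein-coding genes with a count it was -0.1382 in dT (12708 genes). Base composition moved with the sites (rho -0.7775 between sites and GC percent, and 0.4575 between level and GC percent in dT), and the part of either in the level was not tested.

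**Figure D5:**
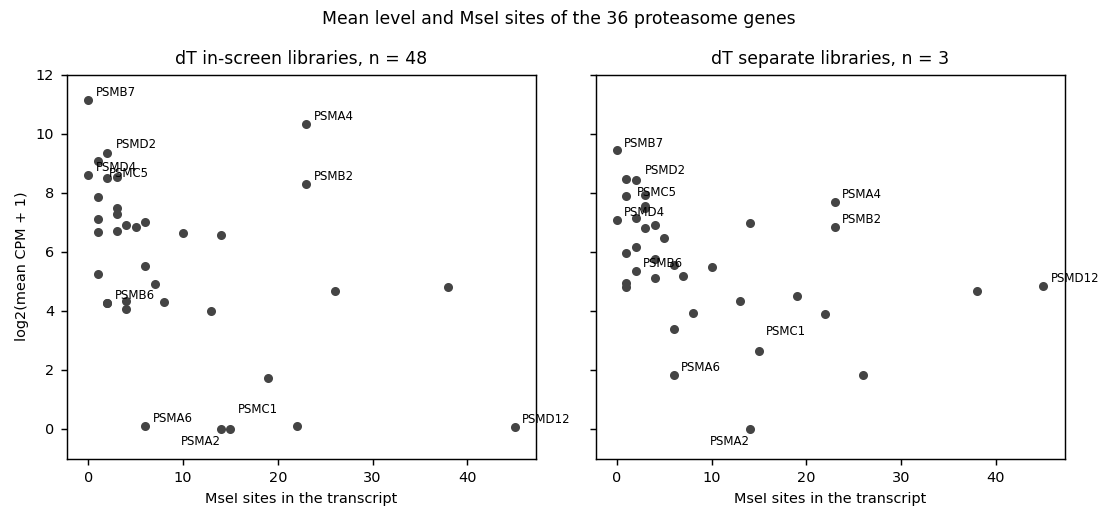
Mean level of the 36 proteasome genes, as log2(mean CPM + 1), against the number of MseI sites in the transcript, for in-screen dT libraries (left) and separate dT libraries (right). Genes with few sites lie at 18.37 to 2263.9 CPM on the left, and genes with 11 or more spread from 0 to the 1287.4 CPM of PSMA4.

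The promoters were searched for the antioxidant response element (TGACNNNGC), which NFE2L1 and NFE2L2 bind with partner proteins, and for CCAAT, each on both strands and without regard to overlap with the other, in 250 bases before and 50 after the start (RefSeq, GRCh38.p14). Promoters were matched for 31 of 36 genes, without PSMA7, PSMB1, PSMB6, PSMB7 and PSMD4. The first was present in 10 of 31 (32.3%), against 16.1% of 27305 genes, and CCAAT in 17 of 31 (54.8%), against 39.7%. Matches are shown in capitals for PSMA4, PSMB3 and PSMD12, whose levels differ.

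PSMA4, plus strand, chr15:78540652-78540676: gggcacgaTGACTCTGCaccgcctc

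PSMB3, plus strand, chr17:38752629-38752653: ctccgtttTGACTTTGCaaccaaac

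PSMD12, minus strand, chr17:67366726-67366750: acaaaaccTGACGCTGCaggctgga

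They begin 126, 104 and 165 bases before the start. PSMA4, PSMB3 and PSMD12 shared the letters, and their dT means were 1287.4, 232.2 and 0.0515 CPM. NFE2L1 and NFE2L2 were themselves counted in 27 and 28 of 48 dT libraries, with 60.49 and 100.7 CPM.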

How the data were processed

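Raw gene counts of reads were deposited for 102 K562 libraries, made by the authors with STAR 2.4.2a against GRCh38 per the submitters' processing notes. The gene annotation and strand setting are not given in the sources used here, and no collapsing of molecular identifiers is described. Columns of other samples numbered 0, and rows naming no gene 0.

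Symbols came from a gene table (21104 genes), and coordinates from GENCODE 29 (24646 genes matched). The members and the lists were chosen with earlier results of these data known. CPM is a gene's counts scaled to a library total of 1000000, with no pseudocount. In-screen libraries with at least 1000 detected genes and at most 15% mitochondrial counts entered quasi-likelihood fits of edgeR 4.0.16 (R 4.3.3) with TMM scaling, its default filter on low counts and run as a term, and p-values were adjusted by Benjamini-Hochberg over all genes tested in a comparison. Terms were drug presence, product terms, listed position, drug by screen and separate against in-screen DMSO. DESeq2 1.42.0 was an alternative. Genes were named when they passed in any comparison, had 1 of the 2 smallest p for a drug or for position in a screen, had 1 of the 6 highest mean CPM or the fewest counted libraries in dT, or encode a catalytic subunit. Related genes were named when they passed or had 1 of the 3 highest mean CPM, and some of these are not reported here. PSMC2, PSMC6, PSMA6, PSMD12 and PSMB9, and the genes beside sequences, were chosen after their values were seen. Thinned values are means of 20 draws. Single-library detections and intervals cover counting error only.

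Pseudogenes of members had 22 rows with 174 counts, 0.09% of member counts. Of the 36 members, 19 overlap another gene, 13 of them a protein-coding one, and without a stated strand setting such reads cannot be assigned with certainty. No pair of libraries of the same group was closer than counting noise (lowest chi-square per degree of freedom 3.33 over 102 pairs). Pairs of libraries from different groups were not compared. Libraries of the same run deviated together with a mean correlation of 0.0171 in dT and 0.0151 in Bio, and 0% of such pairs passed 0.1. On simulated counts for the imatinib comparison, the test found 9 of 50 genes changed 2-fold and 50 of 50 changed 4-fold in each screen. These fits covered 3869 genes in dT with 8 false calls and 1729 in Bio with 6. Whether changes of these sizes would be found in the proteasome genes, at the spread between their libraries, was not tested.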

Additional observations from a re-analysis of the deposited data

Results flagged for a closer look

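The effect of a drug differed between the dT and Bio screens for 4 proteasome genes, by the test of the difference itself (log2 change in Bio minus log2 change in dT, edgeR). PSMB6 differed for imatinib by -10.15 (SE 2.00, adjusted p = 0.000672), and without its highest library it no longer passed the filter on low counts. PSMA5 differed for YM115 by -7.91 (SE 2.10, adjusted p = 0.0138). It had counts in 0 of 21 Bio libraries with YM115 and in 3 of 23 without. Pooled over libraries, this is at least 65.9-fold lower against a floor of 3 counts over the group. Of its 194 counts in these Bio libraries, 135 lay in DMSO + DMSO run 3. Without that library the difference was -4.95 (adjusted p = 0.275). For trametinib PSMA5 differed by -6.47 (SE 1.79, adjusted p = 0.0225), and by -3.87 (adjusted p = 0.434) without that library. PSMD6 differed for YM115 by 5.07 (SE 1.34, adjusted p = 0.0139), with counts in 2 of 21 Bio libraries with YM115 and 0 of 23 without. Without Imatinib + YM115 run 2 of Bio it was 3.03 (adjusted p = 0.248). PSME2 differed for imatinib by -5.82 (SE 1.78, adjusted p = 0.0333), and by -3.92 (adjusted p = 0.106) without DMSO + DMSO run 3 of Bio. Each of the 5 calls was thus lost, or its gene no longer tested, without 1 Bio library.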

How the results depend on the processing

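Of 127 values on proteasome genes recomputed under alternatives other than leaving out a run, 96 stayed and 31 moved. A count of calls stayed if it was equal, 0 against 0 included, or within a ratio of 1.5. A mean stayed if it moved by less than its SD. Direction of change was not part of these labels. The filter requiring a count in at least 50% of libraries, chosen after seeing the data, left 0 proteasome genes called for YM115 in dT, imatinib in Bio, position in dT and in Bio, and each of the 3 drugs between screens. It left 13 of all genes for YM115 in dT, 0 for imatinib in Bio, 8 for position in dT, and 6, 0 and 0 between screens for YM115, imatinib and trametinib. Without the filter on low counts the calls were 1 for YM115 in Bio (PSMD6), 2 for imatinib in Bio (PSMB6 and PSMB3), 1 for imatinib in dT (PSMD10), 1 for trametinib in dT (PSMA3), 0 for position in Bio, 5 for position in dT, and 1, 1 and 0 between screens for YM115, imatinib and trametinib. All genes then gave 203, 168, 510 and 468 calls in these drug comparisons and 1314 for position in dT. The DESeq2 test called 2 for imatinib in dT, 1 for trametinib in dT and 0 for position in Bio and in dT. DESeq2 size factors gave 1 for trametinib with YM115 in dT (PSMC2). Without the replicate block the calls were 0 for imatinib in Bio, 0 for position in Bio, 1 for imatinib between screens (PSMD6) and 2 for trametinib between screens. The run numbers mark repeats of the whole process and not shared samples. With all in-screen libraries there were 4 for position in Bio and 2 for trametinib between screens. Thinned to 100000 counts there were 0 for imatinib in Bio and 2 for position in Bio. Leaving out each run gave 0 to 0 calls for imatinib in Bio and position in Bio, 0 to 1 for YM115 in dT, position in dT, and YM115 and trametinib between screens, and 0 to 2 for imatinib between screens. Thinned to 30000 counts, also chosen after seeing the data, the mean detection in separate libraries fell from 81.48% to 64.67% in dT and from 68.52% to 59.44% in Bio. The cause of these moves was not tested. In Bio 20 of the 36 genes and in dT 10 had too few counts for the drug fits.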
